A study of Mus musculus with 15 samples.

Results

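The MEK inhibitor (MEKi) arm of the study was described here against its control arm, across the whole transcriptome of PDA30364 tumors. PDA30364 is a murine cell line derived from pancreatic ductal adenocarcinoma, and it was the single tumor line used, grown under the skin of the flank in C57BL/6-Ly5.1 mice that were 6 to 12 weeks old at injection. MEKi mice received GDC-0623 by mouth every day at 30 mg/kg together with control mouse IgG, and control mice received the MCT vehicle together with control mouse IgG. Antibody was given on days 3, 5 and 7 of treatment and again 1 day ahead of the analysis, and tumors were taken 26 days after inoculation. The arrays chosen were the 3 titled as MEKi and the 4 titled as control, which made 7 of the 15 arrays of the series. The 4 combination arrays (MEKi with the agonist CD40 antibody) served only to show where MEKi alone differed from the most similar arm, and the 4 arrays of CD40 antibody (Ab) alone entered no comparison of their own.

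MEK1 and MEK2, encoded by Map2k1 and Map2k2, are the kinases that RAF activates and that in turn phosphorylate ERK1 and ERK2. Active ERK switches on transcription of its own brakes, the dual-specificity phosphatases and the Sprouty and Spred proteins, and of ETS and AP-1 transcription factors, and it promotes entry into the cell cycle. Pancreatic ductal adenocarcinoma is driven by RAS upstream of this cascade and is known for a dense stroma of fibroblasts and matrix.

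RNA came from pieces of whole tumor, so that a signal sums tumor cells, stroma, infiltrating immune cells and any tissue at the margin, and fewer cells of a type and less RNA per cell cannot be told apart. Krt19, a keratin of ductal epithelium, was among the brightest signals on every array, at 13.20, 13.59 and 13.46 in MEKi tumors and at 13.13, 13.05, 13.23 and 13.09 in control tumors on the log2 scale. All signals below are log2 values, given for MEKi replicates 1 to 3 and then for control replicates 1 to 4, and a log2 fold change (log2 FC) is the MEKi mean minus the control mean with the standard error (SE) of the fit. Cpa1, an acinar enzyme of the normal pancreas, was near the bottom of the scale in both arms, at 3.92, 4.14 and 4.08 in MEKi tumors and at 4.25, 4.34, 4.33 and 4.16 in control tumors. A gene whose mean over the 15 arrays was under 5 is called dim.

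Several arrays stood apart before any comparison was made. Hair and root sheath keratin genes had a mean level of 6.70, 6.77 and 6.57 in MEKi tumors, against 4.23, 4.23, 4.28 and 6.02 in control tumors, so that all 3 MEKi arrays and control replicate 4 carried hair follicle transcripts. Skeletal muscle genes averaged 9.57, 7.02 and 7.04 in MEKi tumors, against 5.80, 4.38, 6.29 and 6.00 in control tumors, with MEKi replicate 1 far above the rest. B cell genes averaged 6.10, 4.53 and 4.47 in MEKi tumors, against 4.28, 4.23, 4.55 and 4.36 in control tumors, again with MEKi replicate 1 apart. By the animal numbers in the sample titles, some mice were numbered under 10000 and others from 10000 upward, called the lower and the upper series here. All 3 MEKi animals and control replicate 4 belonged to the upper series, and control replicates 1 to 3 to the lower. Whether the number series marks a cohort or a day is not given in the sources used here. Array medians lay between 5.16 and 5.23 in both arms. Gapdh control probe sets averaged 13.07 ± 0.36 (SD, n = 3) in MEKi tumors and 13.41 ± 0.03 (n = 4) in control tumors (p = 0.0286 by an exact permutation test, two-sided, which is the smallest 3 against 4 arrays allow, and 0.143 after adjustment over 10 array measures).

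Of 45037 probe sets tested, 3387 (7.52%) were higher and 3775 (8.38%) lower in MEKi than in control tumors. Reduced to the brightest single-symbol probe set of each gene, 1953 of 18193 genes (10.7%) were higher and 1894 (10.4%) lower. The direction of change was therefore balanced in number, but not in size, since 782 of the called genes rose and 235 fell by at least 1 log2 unit. The 3 MEKi arrays lay wholly above the 4 control arrays for 2981 genes (16.4%) and wholly below them for 3512 (19.3%). The median log2 FC over all genes was -0.041. That value and the percentages of all genes called or without overlap are the background for each gene list below. The number of calls changed when the tissue content or the animal series named above entered the fit. With the muscle and skin levels of each array as covariates, fitted on all 15 arrays, 39 probe sets were higher and 37 lower. With the animal number series as a covariate, 416 were higher and 304 lower. Control replicate 4 is the only control array of the upper series, so that fit in effect set MEKi against it alone. It therefore cannot separate series from treatment. The part of neighboring tissue in the results below was not tested beyond the covariate fit, and that of the animal series was not tested.

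**Figure D1:**
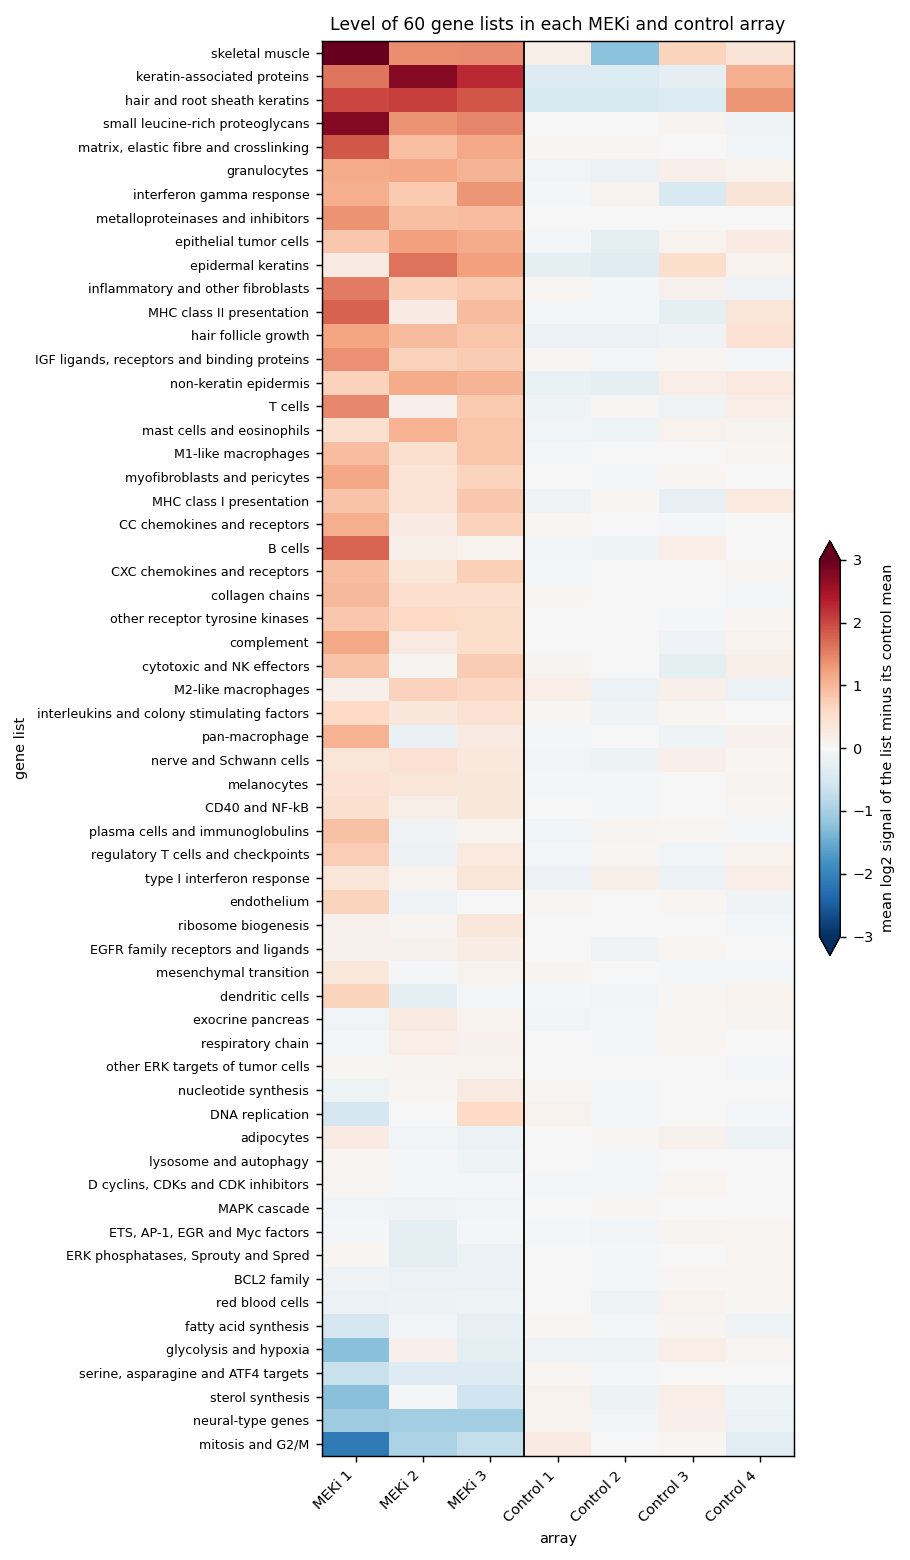
Mean signal on the log2 scale of each of 60 gene lists (rows) in each array (columns, MEKi at the left and control at the right), coloured by its difference from the mean of the control arrays. The colour scale ends at 3 log2 units on either side. Mitosis genes lie below control in all 3 MEKi arrays (6.82, 7.99 and 8.22 against 9.18, 8.95, 8.99 and 8.62), and hair keratin genes lie above every control array, control replicate 4 (6.02) being the nearest.

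The cascade itself changed little in MEKi tumors. Of 11 measured members of the RAS, RAF, MEK and ERK list, 1 rose and 3 fell, and the median log2 FC was -0.11. No member fell without control replicate 1, 2 or 4 or MEKi replicate 3. Map2k1 had signals of 9.81, 10.64 and 10.46 in MEKi tumors, against 10.91, 10.90, 11.00 and 10.95 in control tumors. The groups did not overlap, but the fall was largest in MEKi replicate 1 (log2 FC -0.64 ± 0.18 SE, adjusted p = 0.0448), and it was lost when any control array or MEKi replicate 3 was left out (adjusted p of 0.0722 to 0.105). Map2k2, the gene of the other MEK kinase, did not pass (log2 FC 0.15 ± 0.071, adjusted p = 0.19). Ksr1, a scaffold that holds RAF, MEK and ERK together, rose to 8.11, 7.87 and 8.02 in MEKi tumors, against 7.58, 7.54, 7.55 and 7.55 in control tumors (log2 FC 0.45 ± 0.077, adjusted p = 0.00705).

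The transcriptional brakes on ERK gave a mixed picture: of 10 measured genes for ERK phosphatases, Sprouty and Spred proteins, 3 fell, 1 rose and 6 did not pass (3 rose without MEKi replicate 2). Dusp4, a nuclear phosphatase of ERK, had signals of 7.19, 7.89 and 7.72 in MEKi tumors, against 8.71, 8.31, 8.91 and 8.98 in control tumors (log2 FC -1.13 ± 0.21, adjusted p = 0.0088). Spred3 was at 5.60, 5.49 and 5.39 in MEKi tumors, against 6.42, 6.55, 6.27 and 6.36 in control tumors (log2 FC -0.91 ± 0.091, adjusted p = 0.000743). Spred2 was at 9.12, 9.17 and 8.99 in MEKi tumors, against 9.86, 9.86, 9.78 and 9.85 in control tumors (log2 FC -0.74 ± 0.073, adjusted p = 0.000654). The Spred proteins block the activation of RAF by RAS, and neither gene had overlapping arrays. Dusp6, the cytoplasmic phosphatase of ERK that is widely used as a readout of the pathway, was at 11.05, 10.40 and 10.78 in MEKi tumors, against 10.69, 10.81, 10.84 and 10.84 in control tumors. These arrays overlapped (log2 FC -0.052 ± 0.14, adjusted p = 0.842). Spry2 (-0.21 ± 0.10, adjusted p = 0.19) and Spry4 (0.45 ± 0.17, adjusted p = 0.116) also missed the threshold, and Spry1 rose (0.70 ± 0.13, adjusted p = 0.01).

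Among 15 measured ETS, AP-1, EGR and Myc factors, 4 fell and 1 rose (median log2 FC -0.13), with 3 rises without MEKi replicate 2. Etv5, an ETS factor induced by ERK, had 7.94, 7.75 and 7.76 in MEKi tumors, against 8.48, 8.35, 8.51 and 8.52 in control tumors (log2 FC -0.65 ± 0.082, adjusted p = 0.00194). Its relative Etv4 had 7.32, 7.31 and 7.57 in MEKi tumors, against 8.08, 7.84, 8.09 and 7.84 in control tumors (log2 FC -0.56 ± 0.11, adjusted p = 0.00995). Both ETS genes were lower in every MEKi array than in every control array. The immediate early gene Egr1 spanned 11.11, 9.53 and 10.33 in MEKi tumors and 10.17, 10.29, 10.19 and 10.14 in control tumors (adjusted p = 0.821). Fosl1 was at 8.31, 8.60 and 8.93 in MEKi tumors and at 9.03, 8.78, 9.19 and 8.81 in control tumors (adjusted p = 0.195), while another AP-1 gene, Fosl2, rose (log2 FC 0.77 ± 0.079, adjusted p = 0.000846). Myc did not differ detectably (log2 FC 0.0025 ± 0.062, adjusted p = 0.984). Ccnd1, the D cyclin that ERK induces, was at 11.68, 11.67 and 11.65 in MEKi tumors and at 11.71, 11.78, 11.64 and 11.71 in control tumors (log2 FC -0.043 ± 0.067, adjusted p = 0.707).

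**Figure D2:**
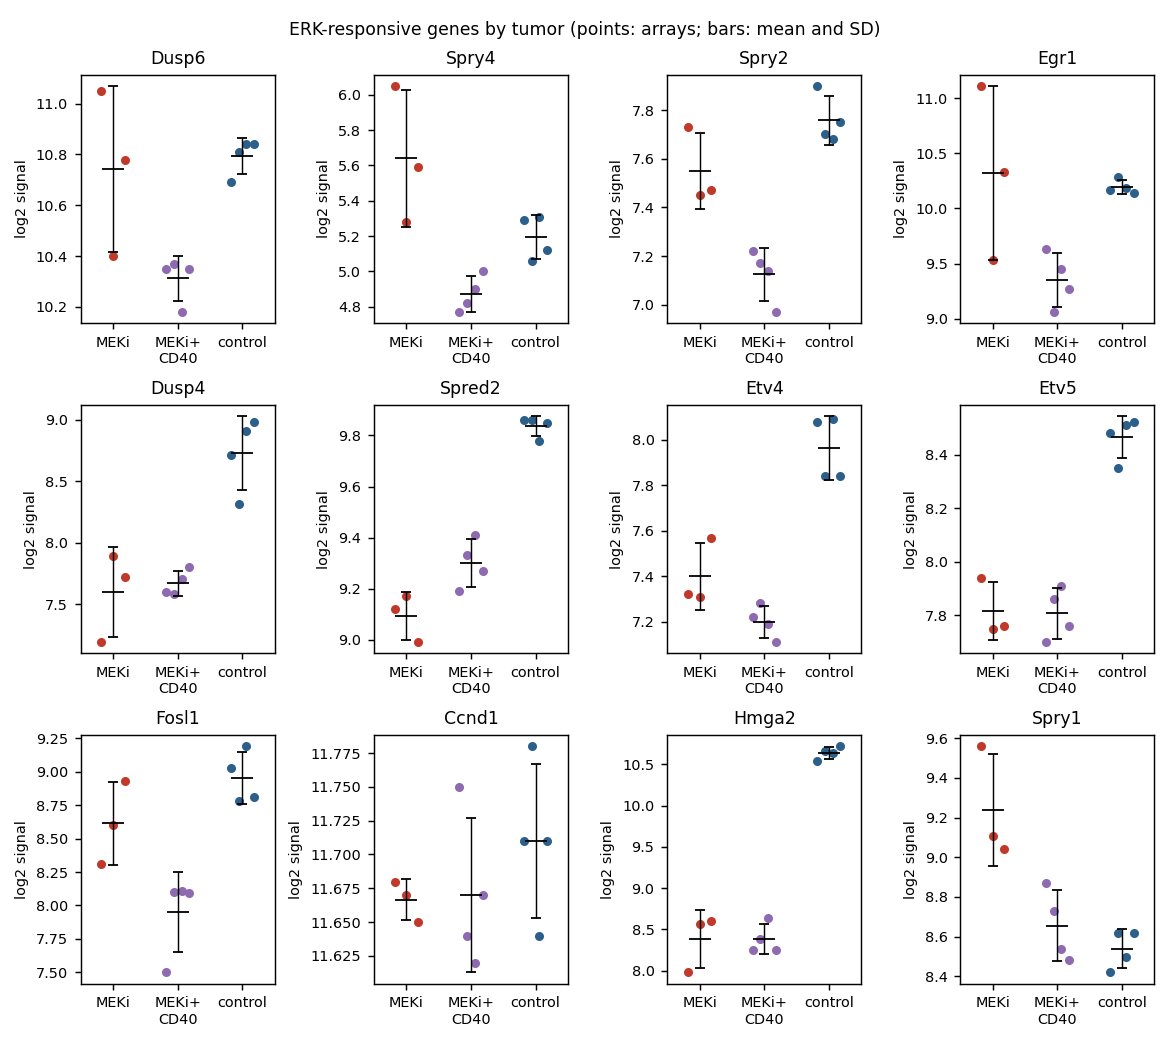
Log2 signal of 12 ERK-responsive genes, 1 panel per gene with its own y axis, in MEKi, combination (MEKi+CD40) and control tumors. Points are arrays and bars are the mean and SD. Dusp4, Spred2, Etv4 and Etv5 have no overlap between MEKi and control arrays, while Dusp6, Egr1 and Ccnd1 overlap.

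The steepest fall within the ERK target lists was that of Hmga2, a chromatin protein of embryonic and invasive tumor cells. It had signals of 7.98, 8.57 and 8.60 in MEKi tumors, against 10.54, 10.66, 10.64 and 10.72 in control tumors (log2 FC -2.26 ± 0.15, adjusted p = 0.000124). The gap between the groups was many times the spread within either of them, and Hmga2 was 1 of 6 named genes that still passed with muscle and skin covariates (log2 FC -2.18 there). Other genes of that list went up. Mmp3, a secreted protease of stroma and tumor cells, had 11.76, 11.59 and 11.06 in MEKi tumors, against 9.32, 9.43, 9.35 and 9.59 in control tumors (log2 FC 2.05 ± 0.16, adjusted p = 0.000268). Plaur, the receptor of urokinase, rose by less (log2 FC 0.59 ± 0.089, adjusted p = 0.00405).

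Receptor tyrosine kinases moved mostly upward. Of 15 measured receptors outside the EGFR family, 9 rose and 1 fell (median log2 FC 0.69, and 0.60 against control replicate 4 alone). With muscle and skin covariates none of the 15 passed, and the median was 0.57. Fgfr3, a receptor of fibroblast growth factors, had 8.46, 8.24 and 7.83 in MEKi tumors, against 5.97, 6.38, 5.98 and 6.35 in control tumors (log2 FC 2.01 ± 0.17, adjusted p = 0.000381). Fgfr1 had 9.56, 9.30 and 9.15 in MEKi tumors, against 7.63, 7.41, 7.40 and 7.67 in control tumors (log2 FC 1.81 ± 0.12, adjusted p = 0.000122). Pdgfra, the platelet-derived growth factor receptor of fibroblasts, had 9.82, 9.57 and 9.55 in MEKi tumors, against 7.98, 8.08, 7.90 and 7.90 in control tumors (log2 FC 1.68 ± 0.092, adjusted p = 6.18e-05). The lowest MEKi array exceeded the highest control array by more than 1 log2 unit for each of the 3 genes. Pdgfrb, carried by fibroblasts and pericytes, rose too (log2 FC 1.20 ± 0.23, adjusted p = 0.0114). Within the EGFR family list, 2 of 13 members rose, against 10.7% of all genes. Egfr was at 8.54, 7.77 and 7.94 in MEKi tumors, against 7.19, 7.20, 7.11 and 7.06 in control tumors (log2 FC 0.94 ± 0.17, adjusted p = 0.00793). Erbb3 was at 8.41, 9.14 and 8.92 in MEKi tumors, against 7.48, 7.11, 7.78 and 8.19 in control tumors (log2 FC 1.18 ± 0.26, adjusted p = 0.0193), a call that was lost without control replicate 1, MEKi replicate 2 or MEKi replicate 3.

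The largest rise among genes whose arrays did not overlap was in the insulin-like growth factor (IGF) system, where 5 of 12 measured ligands, receptors and binding proteins rose and 2 fell. Igfbp2, a secreted binding protein of IGFs, had 11.52, 9.27 and 9.83 in MEKi tumors, against 5.09, 4.28, 4.73 and 5.94 in control tumors (log2 FC 5.20 ± 0.55, adjusted p = 0.000965). Combination tumors were at 9.25, 9.10, 6.76 and 8.73, and the difference of MEKi from combination did not pass (log2 FC 1.75, adjusted p = 0.251). Igf1, the ligand itself, had 11.04, 9.28 and 9.20 in MEKi tumors, against 7.19, 7.18, 7.38 and 7.02 in control tumors (log2 FC 2.65 ± 0.40, adjusted p = 0.00421). MEKi replicate 1 was the highest array for both genes. Igfbp5 had 10.06, 9.52 and 9.69 in MEKi tumors, against 7.66, 7.07, 7.66 and 7.10 in control tumors (log2 FC 2.38 ± 0.20, adjusted p = 0.000325), and it kept its call with muscle and skin covariates (log2 FC 2.39). It was the 1 member of the 12 that passed there. In that fit Igfbp2 had a log2 FC of 2.07 (adjusted p = 0.604) and Igf1 of 2.77 (adjusted p = 0.127). Igfbp3 went the other way, to 10.98, 10.28 and 10.30 in MEKi tumors, against 11.49, 11.51, 11.49 and 11.31 in control tumors (log2 FC -0.93 ± 0.17, adjusted p = 0.00856).

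**Figure D3:**
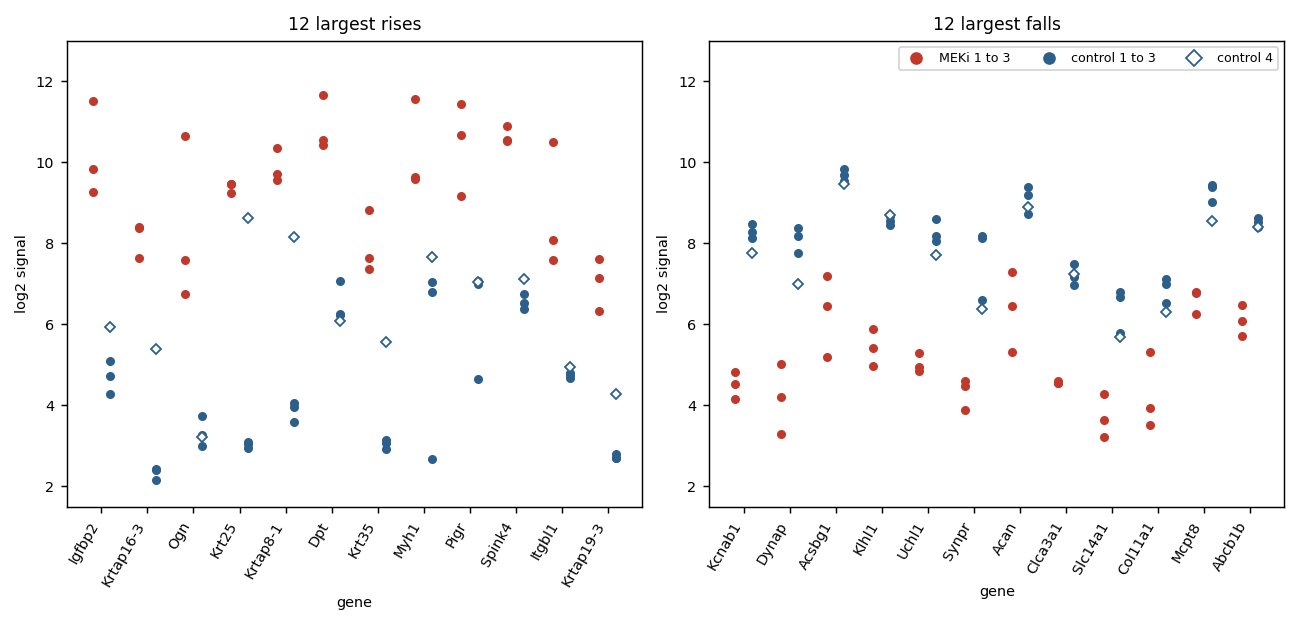
Log2 signal (y axis) of the 12 genes with the largest rise (left panel) and the 12 with the largest fall (right panel) among genes past the threshold whose arrays do not overlap. Points are arrays, with MEKi left of control for each gene and control replicate 4 as an open diamond. Igfbp2 (log2 FC 5.20), Krtap16-3 (5.04) and Ogn (5.02) lead the rises, and Kcnab1 and Dynap (both -3.66) the falls.

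Genes of mitosis were lower in MEKi tumors. Of 29 measured genes of mitosis and the G2/M transition, 20 fell, against 10.4% of all genes, and the other 9 did not pass (median log2 FC -1.26, and -0.91 against control replicate 4 alone). In 26 of the 29 the 3 MEKi arrays lay below all 4 control arrays, against 19.3% of all genes. The mean level over the list was 6.82, 7.99 and 8.22 in MEKi tumors, against 9.18, 8.95, 8.99 and 8.62 in control tumors. Nusap1, a protein of the mitotic spindle, had 6.70, 8.04 and 8.04 in MEKi tumors, against 9.55, 9.45, 9.37 and 9.19 in control tumors (log2 FC -1.80 ± 0.31, adjusted p = 0.00678). Cenpa, the histone that marks centromeres, had 6.82, 8.29 and 8.06 in MEKi tumors, against 9.66, 9.45, 9.54 and 9.03 in control tumors (log2 FC -1.70 ± 0.33, adjusted p = 0.0115). Ccnb2, a B cyclin, had 6.89, 8.90 and 8.58 in MEKi tumors, against 10.23, 9.92, 10.08 and 9.58 in control tumors (log2 FC -1.83 ± 0.43, adjusted p = 0.0249). For the 3 genes MEKi replicate 1 was lowest by over 1 log2 unit, and no MEKi array reached a control array. Plk1, a kinase that drives mitotic entry, had 6.12, 7.60 and 7.62 in MEKi tumors, against 8.91, 8.48, 8.73 and 8.25 in control tumors (log2 FC -1.48 ± 0.36, adjusted p = 0.0267). The calls of Ccnb2 and Plk1 were lost without control replicate 1, 2 or 3, and the count of falling members ranged with the array left out, down to 6 without control replicate 1 and up to 27 without MEKi replicate 3. The list's calls were lost with muscle and skin covariates, where its median was -0.71. Mki67, the proliferation marker, was at 8.91, 9.72 and 9.99 in MEKi tumors and at 10.60, 10.30, 10.44 and 10.01 in control tumors, and did not pass (log2 FC -0.80 ± 0.25, adjusted p = 0.0662).

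The promoters of mitotic genes are known for 2 short elements, CCAAT, bound by NF-Y, and the cell cycle homology region (CHR), bound by the MuvB complexes that repress these genes in resting cells. The RefSeq windows of 300 bases at the annotated starts of 3 of the fallen genes are shown so that the elements can be seen in place, on build GRCm38.p6, with TTTGAA (CHR) and CCAAT in capitals on either strand (TTCAAA and ATTGG where they lie on the other). Cenpa is on the plus strand at chr5:30666636-30666935, Ccnb2 on the minus strand at chr9:70421505-70421804 and Plk1 on the plus strand at chr7:122159185-122159484.
Cenpa: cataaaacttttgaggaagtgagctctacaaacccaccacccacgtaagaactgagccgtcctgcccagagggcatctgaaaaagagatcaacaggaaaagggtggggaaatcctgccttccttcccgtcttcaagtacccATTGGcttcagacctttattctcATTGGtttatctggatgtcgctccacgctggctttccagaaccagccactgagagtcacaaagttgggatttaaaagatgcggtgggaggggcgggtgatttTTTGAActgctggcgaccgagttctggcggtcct
Ccnb2: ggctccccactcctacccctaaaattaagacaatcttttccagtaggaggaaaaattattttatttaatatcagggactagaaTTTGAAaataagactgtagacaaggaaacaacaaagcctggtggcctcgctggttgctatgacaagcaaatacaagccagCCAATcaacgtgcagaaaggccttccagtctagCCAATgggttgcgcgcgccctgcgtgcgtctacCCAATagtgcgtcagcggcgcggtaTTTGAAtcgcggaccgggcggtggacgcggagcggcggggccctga
Plk1: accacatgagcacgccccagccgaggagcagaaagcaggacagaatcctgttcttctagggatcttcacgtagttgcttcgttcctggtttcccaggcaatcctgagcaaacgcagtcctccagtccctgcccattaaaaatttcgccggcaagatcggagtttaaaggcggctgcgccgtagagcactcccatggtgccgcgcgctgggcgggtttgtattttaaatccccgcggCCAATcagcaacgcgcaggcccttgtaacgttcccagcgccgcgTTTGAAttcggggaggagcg
Cenpa carries 1 CHR and 2 CCAAT boxes, Ccnb2 2 and 3, and Plk1 1 and 1. A promoter sequence was matched for 24 of the 29 genes, and 19 of these (79.2%) held TTTGAA and 19 (79.2%) CCAAT on either strand, while 17 (70.8%) held both. Among 27025 promoters of the same length, 18.1% held the first, 37.9% the second and 7.12% both. The share was alike among the 17 fallen members with a promoter sequence, of which 12 (70.6%) held both. A match of letters is a description of the window and not a bound site.

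In contrast to mitosis, DNA replication did not move as a list. Of 28 measured genes, limma called none in either direction, and 1 was higher and none lower at an unadjusted p under 0.05 (median log2 FC 0.042). The MEKi arrays spread on both sides of control, with list levels of 8.27, 8.76 and 9.37 in MEKi tumors and 8.88, 8.73, 8.78 and 8.71 in control tumors. Mcm2, a subunit of the replicative helicase, was at 9.91, 10.14 and 10.62 in MEKi tumors and at 10.05, 9.90, 9.88 and 9.97 in control tumors (adjusted p = 0.274). Inhibitors of cyclin-dependent kinases changed in both directions. Cdkn1a, encoding p21, was at 9.18, 9.23 and 9.17 in MEKi tumors, against 8.01, 7.93, 8.45 and 8.25 in control tumors (log2 FC 1.03 ± 0.13, adjusted p = 0.00169). Cdkn1b, encoding p27, was at 9.82, 9.92 and 9.76 in MEKi tumors, against 10.50, 10.48, 10.58 and 10.55 in control tumors (log2 FC -0.69 ± 0.071, adjusted p = 0.000845). Neither gene had overlapping arrays. Cdkn2b fell as well (log2 FC -0.99 ± 0.14, adjusted p = 0.00272).

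Of 12 measured BCL2 family genes, 4 fell, against 10.4% of all genes, and 8 did not pass. Each array left out gave 1 to 3 falls, with 1 without control replicate 1, 3 or 4 or MEKi replicate 3 and 2 without MEKi replicate 2. Bcl2, which protects cells from apoptosis, was at 8.81, 8.76 and 8.83 in MEKi tumors, against 9.23, 9.24, 9.20 and 9.21 in control tumors (log2 FC -0.42 ± 0.063, adjusted p = 0.004). Bcl2l11, encoding the pro-apoptotic BIM that ERK targets for degradation, was at 8.77, 8.53 and 8.41 in MEKi tumors, against 8.89, 8.90, 8.85 and 9.03 in control tumors. Its call was at the edge of the threshold (log2 FC -0.35 ± 0.10, adjusted p = 0.0489) and was lost without 6 of the 7 arrays in turn.

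Metabolic lists shifted by less than mitosis. Genes of serine and asparagine synthesis and other targets of ATF4, the transcription factor of the amino acid response, gave 10 falls among 15 (median log2 FC -0.47, and -0.36 against control replicate 4 alone). Ddit3, encoding the stress factor CHOP, was at 7.69, 7.78 and 7.49 in MEKi tumors, against 8.90, 8.78, 9.15 and 9.04 in control tumors (log2 FC -1.31 ± 0.11, adjusted p = 0.000376). Trib3, a pseudokinase induced by CHOP, was at 6.19, 7.09 and 6.90 in MEKi tumors, against 8.20, 8.02, 7.96 and 7.91 in control tumors (log2 FC -1.30 ± 0.20, adjusted p = 0.00429). Psph, the last enzyme of serine synthesis, was also lower (log2 FC -0.93 ± 0.15, adjusted p = 0.00603). The count of falling ATF4 targets was 5 without control replicate 1 or 3. Sterol synthesis genes had a median of -0.64, but 1 of 17 passed. The list level was 8.12, 9.32 and 8.78 in MEKi tumors, against 9.48, 9.21, 9.56 and 9.24 in control tumors. MEKi replicate 2 lay within the control range, and without it 13 of them fell. Hmgcs1, an early enzyme of that pathway, had a log2 FC of -0.64 ± 0.23 (adjusted p = 0.0964). In glycolysis and hypoxia 1 of 16 fell (median -0.54), with 9 falls once MEKi replicate 2 was left out. Of fatty acid synthesis genes 4 of 11 fell and 1 rose, with 2 falls without any array other than MEKi replicate 2. Fads1, a desaturase, was at 8.85, 9.32 and 9.05 in MEKi tumors, against 10.26, 10.06, 10.16 and 9.92 in control tumors (log2 FC -1.03 ± 0.13, adjusted p = 0.00182). Ribosome biogenesis had 3 rises in 20 (median 0.21), and the respiratory chain 3 rises in 21 (median 0.070, with 0 to 5 rises as each array was left out, 0 without control replicate 2 or MEKi replicate 2 and 5 without MEKi replicate 1), shares not far from the 10.7% of all genes.

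Of 21 measured epithelial genes 9 rose and 1 fell (median log2 FC 0.59, and 0.33 against control replicate 4 alone), and the list level was 8.82, 9.25 and 9.13 in MEKi tumors, against 7.96, 7.73, 8.13 and 8.26 in control tumors. Pigr, the receptor that carries immunoglobulin A across epithelium, was at 9.18, 11.45 and 10.67 in MEKi tumors, against 6.99, 4.65, 7.07 and 7.05 in control tumors (log2 FC 3.99 ± 0.71, adjusted p = 0.00779). Epcam, an adhesion protein of epithelial cells, was at 10.31, 11.42 and 11.08 in MEKi tumors, against 8.00, 6.67, 8.71 and 9.11 in control tumors (log2 FC 2.81 ± 0.54, adjusted p = 0.0112). Control replicate 2 was the lowest array for both. Lists of skin epithelium were higher in the same arrays, with 5 of 13 epidermal keratins and 10 of 18 non-keratin epidermis genes past the threshold. With muscle and skin covariates none of the 21 epithelial genes passed, the median was 0.25, and Epcam was down to 0.38 in log2 FC (adjusted p = 0.951). As many as 15 genes rose without MEKi replicate 1, and the median was 0.32 without MEKi replicate 2. Lcn2, an iron-scavenging protein of inflamed epithelium and neutrophils, was at 12.10, 11.97 and 11.98 in MEKi tumors, against 8.31, 8.37, 8.96 and 8.78 in control tumors (log2 FC 3.41 ± 0.16, adjusted p = 5.55e-05). Spink4, a secreted peptide of goblet cells, was at 10.56, 10.90 and 10.53 in MEKi tumors, against 6.52, 6.37, 6.75 and 7.13 in control tumors (log2 FC 3.97 ± 0.18, adjusted p = 5.45e-05). Among genes of mesenchymal transition, 3 of 13 rose and 3 fell. Cdh2, encoding N-cadherin, was at 8.09, 7.79 and 7.85 in MEKi tumors, against 9.83, 9.79, 9.59 and 9.60 in control tumors (log2 FC -1.79 ± 0.10, adjusted p = 7.08e-05), whereas Prrx1, a transcription factor of mesenchyme, rose to 9.69, 9.63 and 9.76, against 8.49, 8.49, 8.41 and 8.36 in control tumors (log2 FC 1.26 ± 0.072, adjusted p = 7.08e-05).

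A list made mostly of genes known from neurons and neuroendocrine cells was near the lower end of the scale in MEKi tumors. It also held the urea transporter gene Slc14a1, 1 of the 12 largest falls. That list was drawn up with earlier results of these tumors known, so its direction is no independent evidence. Of its 25 genes 14 were dim, 11 fell and 14 did not pass (median log2 FC -0.14). Kcnab1, a subunit of voltage-gated potassium channels, was at 4.82, 4.54 and 4.16 in MEKi tumors, against 8.29, 8.14, 8.47 and 7.77 in control tumors (log2 FC -3.66 ± 0.20, adjusted p = 6.17e-05). Uchl1, a deubiquitinase abundant in neurons, was at 5.29, 4.84 and 4.95 in MEKi tumors, against 8.60, 8.17, 8.05 and 7.70 in control tumors (log2 FC -3.10 ± 0.20, adjusted p = 0.000118). Klhl1, an actin-binding protein of neurons, was at 4.97, 5.88 and 5.42 in MEKi tumors, against 8.46, 8.56, 8.67 and 8.69 in control tumors (log2 FC -3.17 ± 0.19, adjusted p = 7.69e-05). For all 3 the MEKi arrays lay at least 1 log2 unit below every control array. Kcnab1 (log2 FC -3.55) and Klhl1 (log2 FC -3.29) passed with muscle and skin covariates as well. Synpr, a protein of synaptic vesicles, was at 4.48, 3.88 and 4.60 in MEKi tumors, against 8.12, 6.59, 8.17 and 6.37 in control tumors (log2 FC -2.99 ± 0.47, adjusted p = 0.00493). Of the other large falls, Acan encodes the core protein of a cartilage proteoglycan (log2 FC -2.69 ± 0.40), Col11a1 a fibrillar collagen chain (-2.49 ± 0.40) and Abcb1b a drug efflux pump (-2.40 ± 0.16), and Slc14a1, a urea transporter, was dim (-2.52 ± 0.34).

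Matrix and fibroblast genes formed a broad rise. Among small leucine-rich proteoglycans, which coat collagen fibrils, 8 of 12 rose and the other 4 did not pass (median log2 FC 1.80, and 2.06 against control replicate 4 alone). Dpt, encoding the matrix protein dermatopontin, was at 11.66, 10.42 and 10.56 in MEKi tumors, against 6.23, 6.25, 7.08 and 6.09 in control tumors (log2 FC 4.47 ± 0.34, adjusted p = 0.00022). Ogn, encoding osteoglycin, was at 10.65, 6.74 and 7.59 in MEKi tumors, against 3.27, 3.01, 3.75 and 3.21 in control tumors (log2 FC 5.02 ± 0.79, adjusted p = 0.0049). Dcn, encoding decorin, was at 11.91, 11.30 and 11.10 in MEKi tumors, against 8.90, 8.81, 8.93 and 8.29 in control tumors (log2 FC 2.70 ± 0.22, adjusted p = 0.00031). MEKi replicate 1 was the highest array for all 3, and the others lay far above control as well. Matrix, elastic fibre and crosslinking genes gave 14 rises in 23 (median 1.30). Collagen chains gave 11 rises and 2 falls in 22 (median 0.92, and 1.00 against control replicate 4 alone). Col1a1, the main chain of type I collagen, was at 12.67, 11.81 and 11.99 in MEKi tumors, against 10.47, 10.26, 10.36 and 10.29 in control tumors (log2 FC 1.81 ± 0.19, adjusted p = 0.000846). Col16a1 rose with little spread, to 9.47, 8.96 and 9.08 in MEKi tumors, against 6.99, 7.00, 6.91 and 7.04 in control tumors (log2 FC 2.19 ± 0.12, adjusted p = 6.18e-05). It stayed past the threshold with muscle and skin covariates (log2 FC 2.15).

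Metalloproteinases and their inhibitors gave 10 rises and 2 falls in 17. Mmp2, a gelatinase of fibroblasts, was at 11.64, 10.65 and 10.60 in MEKi tumors, against 8.44, 8.36, 8.48 and 8.23 in control tumors (log2 FC 2.59 ± 0.24, adjusted p = 0.000471). Lists of fibroblast states also held many rises, with 8 rises in 14 for myofibroblasts and pericytes (median 0.80) and 9 in 19 for inflammatory and other fibroblasts (median 0.70). The myofibroblast and pericyte count was 4 without control replicate 1 or 4 and 5 without control replicate 2, and the median 0.53 without MEKi replicate 1. Lrrc15, a marker of activated fibroblasts in tumors, was at 11.78, 11.32 and 11.50 in MEKi tumors, against 9.54, 9.62, 9.45 and 9.67 in control tumors (log2 FC 1.96 ± 0.12, adjusted p = 7.58e-05). Acta2, the smooth muscle actin of myofibroblasts, differed by much less, at 10.74, 10.23 and 10.53 in MEKi tumors, against 9.99, 10.17, 9.88 and 9.99 in control tumors (log2 FC 0.49 ± 0.13, adjusted p = 0.0346, lost without 5 of the 7 arrays in turn). Il6 was dim and did not pass (adjusted p = 0.126), nor did the chemokine Cxcl12 (adjusted p = 0.709). Dermis also holds Dpt, Dcn and collagen, and skin transcripts were higher in the same arrays, with 10 of 18 non-keratin epidermis genes higher. How much of the stromal rise came from skin was not tested beyond the covariate fit, in which 1 of 22 collagen chains passed and the proteoglycan median was 2.15.

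**Figure D4:**
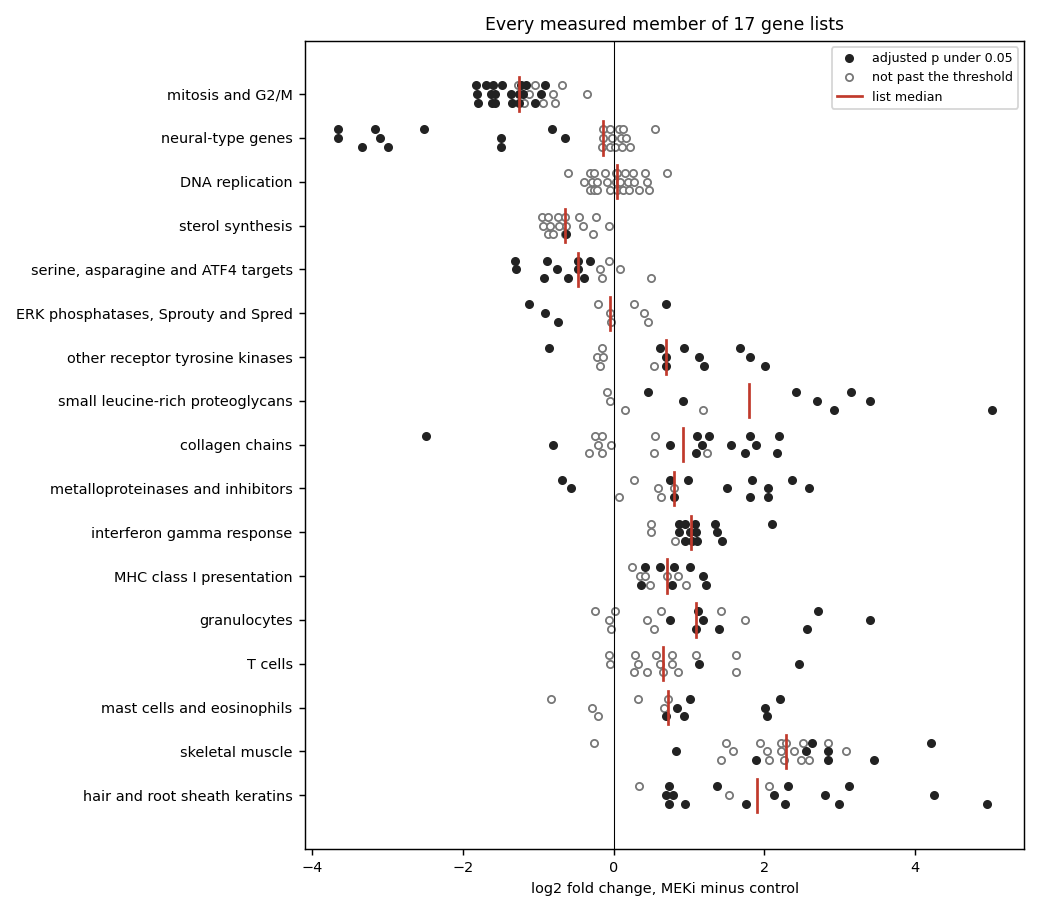
Log2 fold change, MEKi minus control, of every measured member of 17 gene lists (x axis), 1 point per gene, filled where it was past the threshold, with a bar at each list's median. Mitosis genes (median -1.26) lie left of 0, and proteoglycans (1.80), collagen chains (0.92) and hair keratins (1.91) mostly lie to its right, while DNA replication genes (0.042) lie around it.

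The endothelium list gave 2 rises and 2 falls in 20, shares near those of all genes (10.7% and 10.4%), with 5 rises without MEKi replicate 2. Cldn5, a tight junction protein of vessels, fell to 6.38, 6.27 and 6.19 in MEKi tumors, against 7.80, 7.78, 7.44 and 7.41 in control tumors (log2 FC -1.33 ± 0.12, adjusted p = 0.000469). Vwf, a clotting factor made by endothelium, fell too (log2 FC -1.18 ± 0.17, adjusted p = 0.00349), while the pan-endothelial Cdh5 was at 7.22, 6.17 and 6.32 in MEKi tumors and at 6.42, 6.56, 6.49 and 6.25 in control tumors (adjusted p = 0.727).

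Skin and muscle lists held some of the largest differences. Of 18 measured hair and root sheath keratins 15 were higher, and of 19 keratin-associated proteins 15 (medians 1.91 and 2.06). The keratin count was 8 without control replicate 1, 2 or 3 and 9 without MEKi replicate 2 or 3, and the count of keratin-associated proteins was 9 without control replicate 1, 2 or 3, 10 without MEKi replicate 2 and 8 without MEKi replicate 3. Krt25, a keratin of the inner root sheath that was dim over the whole series, was at 9.23, 9.47 and 9.47 in MEKi tumors, against 2.94, 3.09, 3.05 and 8.63 in control tumors (log2 FC 4.96 ± 1.30, adjusted p = 0.0363). Control replicate 4 was therefore close to the MEKi arrays and the other 3 control arrays were near the floor, and the call was lost without any 1 of 6 arrays. Against control replicate 4 alone the keratin median was 0.61. Myh1, a myosin of fast skeletal muscle, was at 11.55, 9.59 and 9.64 in MEKi tumors, against 6.80, 2.68, 7.05 and 7.66 in control tumors (log2 FC 4.21 ± 1.13, adjusted p = 0.0402, lost without 5 of the 7 arrays in turn). Of 25 muscle genes 8 passed (median 2.29), and 1 to 3 passed without any 1 control array (1 without control replicate 1). In 22 of the 25 all MEKi arrays lay above all control arrays, against 16.4% of all genes. Melanocyte genes were mostly dim, and 2 of 11 rose, against 10.7% of all genes. Adipocyte genes gave 1 rise in 14 (median -0.18).

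Interferon and antigen presentation genes were higher in MEKi tumors. Of 16 measured genes of the interferon gamma response 13 rose and the other 3 did not pass, and the median log2 FC was 1.03 (0.74 against control replicate 4 alone). Cxcl10, a chemokine that draws T cells through CXCR3, was at 10.50, 9.76 and 10.94 in MEKi tumors, against 8.29, 8.28, 7.82 and 8.80 in control tumors (log2 FC 2.10 ± 0.30, adjusted p = 0.00315). Cxcl9, a ligand of the same receptor, was at 11.70, 11.49 and 12.13 in MEKi tumors, against 10.41, 10.25, 9.88 and 11.07 in control tumors (log2 FC 1.37 ± 0.27, adjusted p = 0.0118). Gbp6, an interferon-induced GTPase, was at 10.66, 10.20 and 10.97 in MEKi tumors, against 9.32, 9.42, 8.73 and 9.58 in control tumors (log2 FC 1.35 ± 0.23, adjusted p = 0.0072). Control replicate 4 was the highest control array for all 3 genes, and MEKi replicate 2 the lowest MEKi array. Ifng itself was dim, at 4.72, 4.67 and 5.78 in MEKi tumors, against 3.98, 4.00, 3.59 and 4.27 in control tumors (log2 FC 1.10 ± 0.28, adjusted p = 0.0317, lost without control replicate 1, 2 or 3). The type I interferon list gave 6 rises and 1 fall in 24 (median 0.30), with 3 rises without control replicate 2 or 3 and 2 without MEKi replicate 3. The calls of the interferon gamma list were lost with muscle and skin covariates, where its median was 0.71.

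Interferon-stimulated response elements (ISRE), bound by STAT and IRF factors, are the known switch of many of these promoters. The RefSeq windows of Cxcl10 (chr5:92348840-92349139) and Cxcl9 (chr5:92328030-92328329), both on the minus strand of GRCm38.p6, are given because the neighboring chemokine genes rose together and differ in this element, with GAAANNGAAA on either strand in capitals.
Cxcl10: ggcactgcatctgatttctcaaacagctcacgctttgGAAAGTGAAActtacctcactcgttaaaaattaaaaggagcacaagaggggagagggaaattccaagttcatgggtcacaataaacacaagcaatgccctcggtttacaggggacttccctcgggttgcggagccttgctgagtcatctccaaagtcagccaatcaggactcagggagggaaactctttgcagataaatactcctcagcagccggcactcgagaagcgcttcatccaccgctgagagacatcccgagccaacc
Cxcl9: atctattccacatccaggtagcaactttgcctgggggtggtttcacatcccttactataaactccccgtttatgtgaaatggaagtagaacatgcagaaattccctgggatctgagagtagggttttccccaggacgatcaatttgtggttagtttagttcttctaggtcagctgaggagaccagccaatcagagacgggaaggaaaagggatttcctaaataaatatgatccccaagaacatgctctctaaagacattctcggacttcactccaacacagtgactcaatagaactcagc
The Cxcl10 window holds 1 match and the Cxcl9 window holds none, which says only that these letters are not in it. A promoter sequence was matched for 12 of the 16 list genes, and 8 of them (66.7%) held the element, as did 3.49% of the 27025 promoters used.

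MHC class I presentation gave 8 rises in 15 (median 0.71, and 0.35 against control replicate 4 alone). Tapbpl, a chaperone that edits the peptides of class I molecules, was at 9.29, 9.29 and 9.53 in MEKi tumors, against 8.13, 8.18, 8.06 and 8.39 in control tumors (log2 FC 1.18 ± 0.10, adjusted p = 0.000421). Psmb10, an immunoproteasome subunit, was at 10.98, 10.91 and 11.29 in MEKi tumors, against 10.02, 10.03, 9.92 and 10.18 in control tumors (log2 FC 1.02 ± 0.11, adjusted p = 0.001). Both had no overlap between arms. The class I chain H2-K1, near the top of the scale at 13.16, 12.91 and 13.18 in MEKi tumors and at 12.54, 12.83, 12.37 and 12.93 in control tumors, did not pass (log2 FC 0.42 ± 0.15, adjusted p = 0.0936), nor did B2m (log2 FC 0.25 ± 0.12, adjusted p = 0.194). MHC class II gave 4 rises in 9 (median 1.09), with 2 rises without control replicate 1, 1 without MEKi replicate 3 and 7 without MEKi replicate 2, and a median of 0.63 without MEKi replicate 1. Ciita, the master regulator of class II genes, was at 6.45, 5.76 and 6.42 in MEKi tumors, against 4.95, 5.13, 4.47 and 5.15 in control tumors (log2 FC 1.28 ± 0.22, adjusted p = 0.0064). The class II chain H2-Ab1 had a log2 FC of 0.90 ± 0.30 (adjusted p = 0.0795).

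Chemokines rose beyond the interferon targets, with 10 rises and 2 falls in 19 CXC chemokines and receptors (median 0.90) and 5 rises and 2 falls in 23 CC chemokines and receptors (median 0.50). Without MEKi replicate 2 the CC list gave 11 rises, without MEKi replicate 1 its median was 0.33, and no member fell without control replicate 1 or 2 or MEKi replicate 3. Ccl20, which attracts cells through CCR6, was at 10.27, 9.73 and 10.09 in MEKi tumors, against 6.57, 6.19, 6.16 and 6.82 in control tumors (log2 FC 3.60 ± 0.19, adjusted p = 5.85e-05). Ccl2, the chemokine of monocytes, was at 10.48, 9.32 and 10.19 in MEKi tumors, against 7.94, 8.00, 7.99 and 7.96 in control tumors (log2 FC 2.02 ± 0.24, adjusted p = 0.00141). Cxcl1, a chemokine of neutrophils, was at 9.90, 9.59 and 9.30 in MEKi tumors, against 7.66, 7.73, 7.96 and 7.64 in control tumors (log2 FC 1.85 ± 0.15, adjusted p = 0.000269). The lowest MEKi array lay over 1 log2 unit above the highest control array in each. Ccl7 rose to 8.49, 7.28 and 7.51 in MEKi tumors, against 5.91, 6.41, 6.15 and 5.81 in control tumors (log2 FC 1.69 ± 0.28, adjusted p = 0.00591), and passed with muscle and skin covariates (log2 FC 2.38). Interleukins and colony stimulating factors gave 9 rises and 4 falls in 24, with 5 rises without control replicate 1 or 2 and 2 falls without control replicate 1 or 3. Il1b, an inflammatory cytokine of myeloid cells, was at 9.82, 8.61 and 9.61 in MEKi tumors, against 7.31, 7.40, 7.41 and 7.44 in control tumors (log2 FC 1.96 ± 0.25, adjusted p = 0.00219). Genes of CD40 and NF-kB gave 7 rises in 16 (median 0.41) although no CD40 antibody was given. Cd40 was at 6.89, 6.43 and 6.78 in MEKi tumors, against 5.99, 5.84, 6.02 and 5.90 in control tumors (log2 FC 0.76 ± 0.12, adjusted p = 0.00417). Nfkbia, an inhibitor that NF-kB induces, rose by a similar amount (log2 FC 0.64 ± 0.088, adjusted p = 0.00272).

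Markers of lymphocytes were mostly not past the threshold, and MEKi replicates differed widely among themselves. T cell genes gave 2 rises in 17 (median 0.65), a share near the 10.7% of all genes. The 2 were Bcl11b and Thy1, and Thy1 is also on the myofibroblast and pericyte list. At an unadjusted limma p under 0.05, 8 of the 17 were higher and none lower. The T cell list levels were 7.02, 5.73 and 6.37 in MEKi tumors and 5.46, 5.61, 5.49 and 5.78 in control tumors. Cd3g, a chain of the T cell receptor complex, was at 7.94, 5.59 and 7.24 in MEKi tumors, against 5.27, 5.46, 4.62 and 5.81 in control tumors (log2 FC 1.63 ± 0.51, adjusted p = 0.0678). Cd8a was at 6.76, 5.36 and 6.45 in MEKi tumors, against 5.07, 5.26, 5.74 and 5.60 in control tumors (log2 FC 0.77 ± 0.32, adjusted p = 0.143). MEKi replicate 2 lay within the control range in both, and without it 12 T cell genes rose. Cd4 (log2 FC -0.067 ± 0.081, adjusted p = 0.628) and the dim Foxp3, the factor of regulatory T cells (-0.13 ± 0.12, adjusted p = 0.515), were not detectably different. Bcl11b, a transcription factor of T cells that skin also expresses, was at 8.09, 7.40 and 7.49 in MEKi tumors, against 4.86, 5.26, 5.07 and 5.62 in control tumors (log2 FC 2.46 ± 0.21, adjusted p = 0.00041). Gzmb missed the threshold (log2 FC 0.88 ± 0.29, adjusted p = 0.0746), while Gzmc, another granzyme of cytotoxic cells, rose (log2 FC 1.55 ± 0.17, adjusted p = 0.00108). The B cell median of 0.60 rested on MEKi replicate 1 and was -0.01 without it. Cd274, encoding PD-L1, was at 7.50, 6.79 and 7.59 in MEKi tumors, against 6.43, 6.64, 5.97 and 6.64 in control tumors (log2 FC 0.87 ± 0.23, adjusted p = 0.0365, lost without 6 of the 7 arrays in turn).

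**Figure D5:**
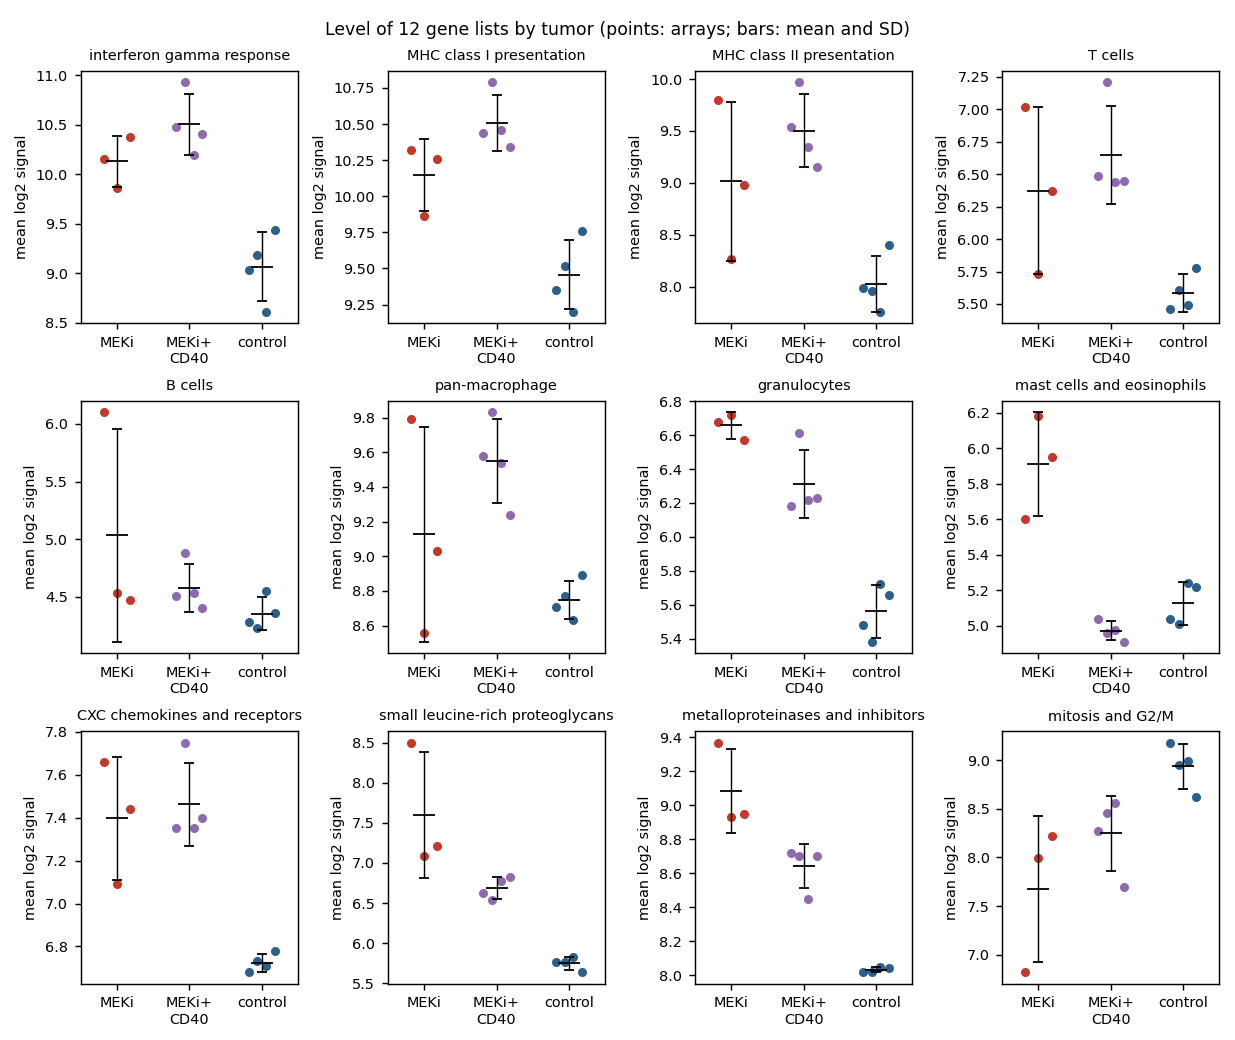
Mean signal on the log2 scale of 12 gene lists, 1 panel per list with its own y axis, in MEKi, combination (MEKi+CD40) and control tumors. Points are arrays and bars are the mean and SD. The interferon gamma response (10.15, 9.86 and 10.38 in MEKi against 9.03, 9.18, 8.61 and 9.44 in control arrays) and granulocyte lists show no overlap between MEKi and control arrays, whereas T cell levels do, at 5.73 for MEKi replicate 2 and 5.78 for control replicate 4.

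Myeloid genes moved in both directions. Of 15 pan-macrophage genes 1 rose (median 0.44), with 7 rises without MEKi replicate 2 (median 0.71) and a median of 0.05 without MEKi replicate 1. Adgre1, the standard surface marker of mouse macrophages, was at 8.55, 6.86 and 7.28 in MEKi tumors and at 6.92, 7.01, 6.81 and 7.22 in control tumors (log2 FC 0.57 ± 0.35, adjusted p = 0.308). Mrc1, encoding CD206, a mannose receptor of M2-like macrophages, fell to 7.94, 8.50 and 8.04 in MEKi tumors, against 9.60, 9.32, 9.67 and 9.27 in control tumors (log2 FC -1.30 ± 0.16, adjusted p = 0.00164). Chil3, a lectin that is also counted among M2-like genes, rose to 7.01, 7.62 and 7.48 in MEKi tumors, against 3.94, 2.82, 3.89 and 3.26 in control tumors (log2 FC 3.89 ± 0.28, adjusted p = 0.000186). The remaining 13 M2-like genes did not pass. Of 11 M1-like genes 4 rose. Acod1, the enzyme that makes itaconate in activated macrophages, was at 9.95, 9.34 and 10.07 in MEKi tumors, against 6.79, 6.74, 6.47 and 6.64 in control tumors (log2 FC 3.13 ± 0.17, adjusted p = 6.18e-05), and Tnf rose by less (log2 FC 0.84 ± 0.13, adjusted p = 0.00518). Nos2 was dim and did not pass (adjusted p = 0.596). Complement genes gave 5 rises in 16 (8 without MEKi replicate 2), led by Serping1, the C1 inhibitor (log2 FC 1.52 ± 0.23, adjusted p = 0.00412).

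Granulocyte genes gave 8 rises in 17 (median 1.10, and 0.94 against control replicate 4 alone). S100a8, a subunit of the calprotectin of neutrophils, was at 10.78, 9.70 and 9.74 in MEKi tumors, against 7.29, 6.87, 7.53 and 7.78 in control tumors (log2 FC 2.71 ± 0.30, adjusted p = 0.00113). Csf3r, the receptor of the neutrophil growth factor G-CSF, was at 8.21, 7.12 and 7.67 in MEKi tumors, against 6.41, 5.96, 6.32 and 6.37 in control tumors (log2 FC 1.40 ± 0.23, adjusted p = 0.00627). In both the groups stood clear of each other. With muscle and skin covariates neither gene passed (S100a8 log2 FC 1.74, limma adjusted p = 0.101, and Csf3r 0.96, adjusted p = 0.236). Ly6g, another gene of that list, had no probe set of 1 symbol and was not measured. Mcpt8, a protease of basophils, was among the 12 largest falls, at 6.26, 6.81 and 6.77 in MEKi tumors, against 9.39, 9.01, 9.44 and 8.54 in control tumors (log2 FC -2.48 ± 0.23, adjusted p = 0.000548). Mast cell and eosinophil genes rose in 7 of 13. Cma1, a chymase of mast cells, was at 6.98, 8.05 and 7.79 in MEKi tumors, against 5.51, 5.13, 5.72 and 5.95 in control tumors (log2 FC 2.03 ± 0.27, adjusted p = 0.00253). Mast cells reside in skin, and whether these signals came from skin was not tested beyond the covariate fit. There Cma1 had a log2 FC of 0.066 (limma adjusted p = 0.988). The list genes Cpa3 (-0.11), Kit (-0.13) and Hdc (0.75) did not pass in that fit either. The level of the mast cell and eosinophil list was 5.60, 6.18 and 5.95 in MEKi tumors, against 5.04, 5.01, 5.24 and 5.22 in control tumors. Keratin-associated protein genes averaged 5.42, 6.54 and 6.07 in MEKi tumors, against 3.43, 3.41, 3.53 and 4.91 in control tumors.

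Set against the combination, MEKi alone differed at fewer probe sets, with 807 (1.79%) higher and 457 (1.01%) lower, and at 482 (2.65%) and 251 (1.38%) genes. The combination animals all belonged to the lower number series and the MEKi animals to the upper, so treatment and series cannot be told apart here. Skin lists led the difference, with 16 of 18 hair and root sheath keratins higher in MEKi tumors. Among 10 ERK phosphatase, Sprouty and Spred genes 1 was higher in MEKi than in combination tumors (median 0.40, with 6 higher and 2 lower at an unadjusted p under 0.05), among 15 ETS, AP-1, EGR and Myc factors 1 was lower (median 0.24, with 6 higher and 2 lower unadjusted), and among 13 other ERK targets 2 were higher (median 0.21). The genes past the threshold were the ERK phosphatase gene Dusp5 (log2 FC 0.83 ± 0.12, adjusted p = 0.0151), Plaur (0.86 ± 0.089, adjusted p = 0.00357), Mmp3 (1.44 ± 0.27, adjusted p = 0.0328) and the stress-induced factor Atf3 (-0.75 ± 0.10, adjusted p = 0.00932). The other genes of these lists did not pass, and some of them differed little from the combination. Hmga2 was at 7.98, 8.57 and 8.60 in MEKi tumors and at 8.25, 8.39, 8.64 and 8.25 in combination tumors (log2 FC 0.00083, adjusted p = 0.999). Etv5 likewise had a log2 FC of 0.0092 (adjusted p = 0.974) and Dusp4 of -0.07 (adjusted p = 0.879). Dusp6 was at 11.05, 10.40 and 10.78 in MEKi tumors, against 10.35, 10.37, 10.18 and 10.35 in combination tumors, and Egr1 at 11.11, 9.53 and 10.33, against 9.63, 9.06, 9.45 and 9.27, but neither difference passed (log2 FC 0.43 and 0.97, adjusted p of 0.176 and 0.177). Mitosis genes were lower at the median (-0.56) with none of 29 past limma's threshold and 5 lower at an unadjusted p under 0.05. Interferon gamma genes were lower at the median (-0.36) with none of 16 past it and 4 lower unadjusted. A few other named genes did separate the arms, and their cells of origin were not tested. Lcn2 was at 12.10, 11.97 and 11.98 in MEKi tumors, against 10.05, 10.46, 9.94 and 10.90 in combination tumors (log2 FC 1.68, adjusted p = 0.00819). Pdgfra was at 9.82, 9.57 and 9.55 in MEKi tumors, against 8.24, 8.29, 8.35 and 7.94 in combination tumors (log2 FC 1.44, adjusted p = 0.00143). Uchl1 was at 5.29, 4.84 and 4.95 in MEKi tumors, against 6.83, 6.65, 6.52 and 6.71 in combination tumors (log2 FC -1.65, adjusted p = 0.000865), and Cdh2 was lower as well (log2 FC -1.04, adjusted p = 0.00943).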

How the data were processed

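Tumors were profiled on Affymetrix mouse 3' expression arrays, 1 per tumor, from 200 ng of total RNA. Each deposited value is a log2 signal of 1 probe set, made by the authors with robust multi-array average (RMA, in Chipster), which corrects background, quantile-normalizes the arrays and summarizes probes. The RMA version is not given in the sources used here. RMA narrows low signals, and the number of arrays, 3 and 4, limited the precision. Replicates are separate tumors of separate mice, and the labels speak of 4 to 5 mice a group. The paper describes RNA from 4 or more animals in each group, whereas the series holds 3 MEKi arrays. Why it holds 3 is not given in the sources used here.

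Of 45101 probe sets, 64 controls were left out and 45037 tested with limma 3.58.1 in R 4.3.3 (moderated test, two-sided, the arrays of the 2 groups alone, Benjamini-Hochberg over all probe sets, threshold 0.05). 34945 probe sets had 1 symbol, 932 several and 9160 none in the annotation used. Per gene, the single-symbol probe set with the highest mean over 15 arrays was taken (18193 genes). The rule named the 12 largest rises and falls without overlap between arrays, up to 4 passing members of each of 60 lists (929 of 1017 genes measured), genes of interest (45 of 50 measured), and the cell type markers. Members and lists were chosen with earlier results of these data known, so no list is independent evidence. Array measures were compared by exact permutation tests, two-sided, with a smallest possible p of 0.0286. The scripts were tested on simulated data. Alternatives covered the samples fitted, priors, weights, normalization, dim or cross-matching probe sets, gene summaries, covariates, the replicate block, thresholds and each array left out. Promoter windows came from RefSeq (GRCm38.p6), the first listed start of each gene, matched by symbol. Windows on chr18 were left out, so a gene there had no promoter sequence.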

Additional observations from a re-analysis of the deposited data

Results flagged for a closer look

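In 22 of 289 groups of 4 control arrays examined, 1 array lay so far from the other 3 that its gap, divided by the range of the group, exceeded the critical value of Dixon's test for 4 samples. Chance flags about 1 group in 20, so several of these are expected without any cause. The genes share arrays and tissues and are not independent. Groups of 3, such as MEKi, were not examined in this way.

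Control replicate 4 was the high array for hair genes, with gap ratios of 0.974 for Krt25, 0.920 for Krtap16-3, 0.899 for Krtap8-1, 0.916 for Krt35, 0.943 for Krtap19-3 and 0.870 for S100a3. The list levels gave 0.971 for hair and root sheath keratins, 0.918 for keratin-associated proteins and 0.879 for hair follicle growth. The same array was high for Cxcl11 (0.877) and Il18 (0.842) and low for Igfbp3 (0.900). Control replicate 2 was the low array for Pigr (0.967), Krt14 (0.921), Mb (0.849) and Dgat2 (0.838). Control replicate 3 was high for Dpt (0.838) and the Gapdh control probe sets (0.944), and low for Spred2 (0.875) and Erap1 (0.935). Control replicate 1 was low for Cdkn1c (0.906) and high for Xbp1 (1.000), whose other 3 control values differed by less than the rounding of the deposited values or not at all.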

How the results depend on the processing

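MEKi against control gave 3387 higher and 3775 lower probe sets. Counts moved by over 1.5 times with 1 probe set per gene (2137 and 2191), the mean of a gene's probe sets (2021 and 2158), the replicate number as a replicate block (1862 and 1297), muscle and skin covariates (39 and 37), the animal number series as a covariate (416 and 304), the upper series alone (0 and 0, with 4600 probe sets at an unadjusted limma p under 0.05, a fit with 1 control array that says nothing about the series), an adjusted p under 0.01 (1630 and 1299) and a log2 FC of at least 1 (1230 and 446). Leaving out each array gave 2255 to 3871 higher (lowest without control replicate 1, highest without MEKi replicate 1) and 2143 to 4012 lower. The 2 summaries per gene test fewer features, and leaving arrays out or fitting the upper series alone leaves fewer samples. The fit with the series as a covariate also rests on control replicate 4 for its difference, so it says nothing about the series either. The cause of the other shifts was not tested. The remaining settings kept both counts within 1.5 times: all 15 arrays, a trend and robust prior, array weights, further quantile normalization, median centring, probe sets with a mean over 5, no cross-matching probe sets, and MEKi replicate 1 left out with control replicate 4.

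With muscle and skin covariates the sign turned for Krt25 (-1.67), Krtap8-1 (-0.78), Myh1 (-1.81), Erbb3 (-0.11), Scd1 (0.16), Ttn (-0.44), Krt5 (-0.33), Krt73 (-0.36), Cela1 (-0.13), Cpa3 (-0.11) and Kit (-0.13), and for the medians of hair and root sheath keratins (-0.043) and non-keratin epidermis (-0.053). Muscle and skin levels were part of that fit, and the skin level went largely with treatment. Of 193 named genes past the threshold, 6 kept their call there, 146 kept it without each of the 7 arrays in turn, and 46 with the animal series as a covariate. The fit with the animal series in effect set MEKi against control replicate 4 alone.

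MEKi against combination gave 807 higher and 457 lower. It moved with all 15 arrays (1977 and 1686), the replicate block (150 and 30), muscle and skin covariates (8 and 1), an adjusted p under 0.01 (249 and 73) and a log2 FC of at least 1 (369 and 97). Leaving out each array gave 320 to 1250 higher (lowest without combination replicate 2, highest without MEKi replicate 1) and 99 to 839 lower (lowest without MEKi replicate 3, highest without MEKi replicate 1).

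Same-numbered arrays did not deviate together (r of -0.0403, -0.115 and 0.163 between MEKi and control, and -0.153, -0.278 and 0.144 between MEKi and combination), so the numbers do not pair the samples. Under the replicate block 142 of the 193 named calls stayed and 51 were lost.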
